A study of Drosophila melanogaster with 2 samples.

Results

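The genes described here are 10 genes of glial identity and function in Drosophila melanogaster, listed by name and looked up in the Ensembl annotation, out of 13945 protein-coding genes. The early fate regulators were gcm, gcm2 and repo. The differentiated glial genes were loco, moody, Gs2, nrv2, Eaat1, wrapper and htl. Binding of E(spl)mbeta-HLH, a basic helix-loop-helix repressor whose gene responds to Notch signalling, was measured by chromatin immunoprecipitation and sequencing in whole embryos of both sexes, aged 0 to 24 hours. The embryos came from 1 transgenic line that stably expresses the factor with a C-terminal GFP, and its 2 samples formed a single group, biological replicates 1 and 3. The antibody field and the assay title describe an immunoprecipitation, whereas the free text of both samples speaks of an input control, and every value below carries that conflict. No other genotype, stage or treatment was measured, so no conditions were compared. Signal came from all cells of the embryo, and its source in glia or in other cells cannot be told apart.

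Glia of the fly embryo arise from neuroglial precursors under the control of gcm, a zinc-binding transcription factor that switches cells from the neuronal to the glial fate. Its neighbour gcm2 encodes a related factor with overlapping function, and repo encodes a homeodomain protein that carries glial differentiation onward. Differentiated glia insulate axons, seal the blood-brain barrier and clear neurotransmitter. E(spl) proteins are known to bind the E-box-like words CACGTG and CACGCG and the N-box, CACNAG, and to act with the co-repressor Groucho.

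A summit, the deposited point of highest enrichment within a peak, was counted for a gene when it lay in the gene span or within 2000 bp of it. The reproducible list, which the authors thresholded by irreproducible discovery rate (IDR), had 5744 peaks with signals from 183.6 to 5401 and a median of 293.5. It was identical to the 5744 peaks of highest signal in the list pooled from both replicates. A summit called reproducible here thus stood above a cut in pooled signal, which is not a measure of replicate agreement at that summit. The signal is the authors' value for each peak, and it was ranked only within a list. By this rule 5 of the 10 genes had a reproducible summit, against 39.3% of all protein-coding genes. All 5 were differentiated genes, namely loco, moody, Gs2, nrv2 and wrapper. None of the 3 early regulators had one. The 5 genes held 11 reproducible summits, with 3 each at moody and Gs2, 2 each at loco and nrv2, and 1 at wrapper. The strongest summit per gene ran from 253.9 to 1417 with a median of 557.5, and the median over all 5480 genes with a reproducible summit was 360.0. The member median is the value of wrapper and the lowest that of nrv2, both from summits nearer to a transcription start site of another gene. These medians are not matched for gene length.

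**Figure D1:**
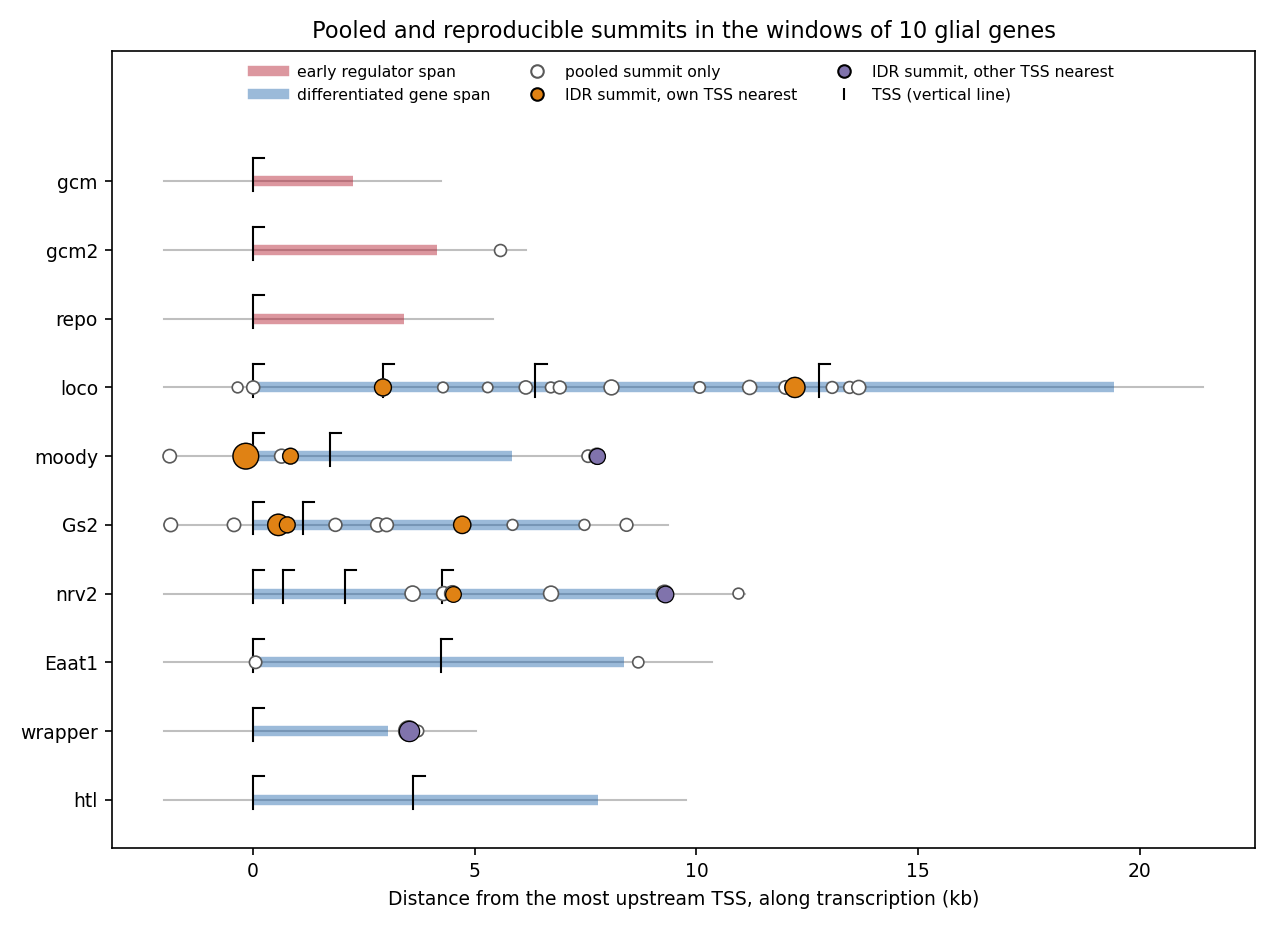
Map of the 10 genes, with distance in kb from the most upstream transcription start site (TSS) along the direction of transcription; thick bars are gene spans, thin lines the added 2000 bp, vertical lines TSSs, open circles summits of the pooled list and filled circles reproducible summits, with area growing with the square root of signal. No circle lies in the windows of gcm, repo and htl, while filled circles stand at loco, moody, Gs2, nrv2 and wrapper.

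Gene length differed between the classes and bears on these counts. The early regulators spanned 2248 to 4145 bp and the differentiated genes 3039 to 19420 bp. Among genes with a span under 5 kb, 33.9% had a reproducible summit, and 1 of the 4 such members did, wrapper. Among genes with a span of 5 kb to under 20 kb the share was 52.9%, and 4 of the 6 such members had one. Per 10 kb of window the differentiated genes held 1.24 reproducible summits and the early regulators 0, against 0.429 over the 6 chromosome arms, which include sequence outside genes. The pooled list of 30000 entries, like the full replicate lists, is labelled as peaks and background. In it the corresponding densities were 4.84, 0.459 and 2.24. With 3 and 7 genes these are descriptions, and the difference between the classes was not tested.

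gcm had no summit of any list in its window. The gene lies at 2L 9579498 to 9581745 (dm6, minus strand) with 1 TSS shared by 2 transcripts. Its nearest pooled summit was 8.4 kb from the gene and its nearest reproducible summit 8.6 kb, and both were nearest to a TSS of brwl. A pooled summit at least as far away was found for 21.0% of protein-coding genes, so the distance was not unusual.

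gcm2 had weak listed peaks only at its downstream neighbour. The gene lies at 2L 9608562 to 9612706 on the plus strand. The pooled list held 1 summit in the window, 1431 bp past the gene end, with a signal of 67.0 and rank 17315 of 30000. It lay 723 bp from a TSS of Trx2, a thioredoxin gene, and 5575 bp from that of gcm2. Replicate 1 listed this peak at rank 16693 with a signal of 44.2. Replicate 3 listed peaks at ranks 18471 and 19510, also nearest to Trx2. No list held a summit in the span of gcm2.

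repo resembled gcm in having an empty window in all 4 lists. The gene lies at 3R 18236192 to 18239602 on the plus strand. The nearest pooled summit was also the nearest reproducible one, 3173 bp from the gene, with a signal of 228.0 and rank 4276. It lay 88 bp from a TSS of the neighbouring gene 14-3-3epsilon, and the peaks there ranked 8849 in replicate 1 and 3153 in replicate 3. With a window of 5 kb, 2 of the 3 early regulators would count as having a reproducible summit, repo through this one and gcm2 through one that lay 56 bp from a TSS of GlcAT-S. The count of 0 at the early regulators thus holds for the 2000 bp window and the gene spans, and not for the wider window.

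Counting all 3 full lists, 3 of the 10 genes had no summit in their window, against 34.8% of all protein-coding genes. These were gcm, repo and htl. The pooled list had a summit at 7 of the 10, against 59.5%. The shares at the members were thus close to the background in this respect.

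moody carried the strongest summit of the set. It encodes a G protein-coupled receptor of surface glia that is required for the blood-brain barrier, and it lies at X 2044292 to 2050120 on the minus strand. The promoter summit had a pooled signal of 1417 and rank 126. Its signal was 810.9 in replicate 1, at rank 128, and 607.0 in replicate 3, at rank 117. The summits of both replicates lay within 15 bp of the pooled one, which was 163 bp before the TSS of moody-RB and moody-RD. The nearest TSS of another protein-coding gene, CG4313, was 2401 bp away.

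The 201 bp around this summit (chrX:2050183-2050383, dm6, minus strand, sequence from RefSeq) are shown because it was the highest-ranking site of the set. Capitals mark CACTAG, a form of the N-box.
moody promoter summit: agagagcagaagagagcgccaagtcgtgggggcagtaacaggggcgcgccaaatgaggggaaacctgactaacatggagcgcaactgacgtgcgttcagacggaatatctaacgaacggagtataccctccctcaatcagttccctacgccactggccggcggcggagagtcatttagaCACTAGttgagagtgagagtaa

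A weaker summit of moody fell in its first exon. It had a signal of 197.4 and rank 5227, close to the end of the reproducible list, and lay 845 bp after the first TSS, in the 5′ untranslated region of moody-RB and moody-RD. Relative to the second TSS, which starts moody-RA, moody-RC, moody-RE and moody-RF, it was at -880 bp. Its replicate ranks were 6372 and 4249. The third summit in the window, with a signal of 210.3, lay 1928 bp past the end of the gene and 53 bp from the TSS shared by Actn, the alpha-actinin gene, and usp, a nuclear receptor gene. The replicate peaks there had ranks of 3258 and 8418, the widest gap among the 11 summits. Within the gene, signal was thus highest at the upstream of its 2 TSSs.

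Gs2, which encodes a glutamine synthetase that converts glutamate to glutamine, had its summits inside the gene. It lies at X 11422832 to 11430197 on the plus strand. The strongest summit had a pooled signal of 676.0 and rank 609, with ranks of 605 in replicate 1 (signal 402.6) and 671 in replicate 3 (signal 273.2). It lay between the 2 TSSs, 571 bp after the first and 554 bp before the second. This places it in intron 1 of Gs2-RB and Gs2-RD and upstream of Gs2-RA, Gs2-RC, Gs2-RE and Gs2-RF, so neither TSS could be preferred by distance.

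A second row of the list had the same borders as this peak and another summit, 354 bp before the second TSS. Its signal was 205.4 and its rank 4981, and the replicate peaks with the nearest summits ranked 8984 and 4972. The third summit of Gs2 lay 3592 bp after the second TSS, in intron 2 of 5 transcripts and intron 1 of Gs2-RF. It had a signal of 288.3 and rank 2954, with ranks of 2886 and 3136 in replicates 1 and 3.

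The strongest of these Gs2 sites and the downstream one are shown as 121 bp of plus-strand sequence, at chrX:11423343-11423463 and chrX:11427489-11427609, since they are the 2 strongest intronic summits of the gene. Capitals mark CACGAG, an N-box form found at the downstream site, and none of the words sought occurred in the other stretch. The GC content of the stretches was 32.2% and 46.3%.
Gs2 first intron: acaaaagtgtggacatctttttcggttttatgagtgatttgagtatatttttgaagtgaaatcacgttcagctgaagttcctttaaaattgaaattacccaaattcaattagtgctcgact
Gs2 downstream intron: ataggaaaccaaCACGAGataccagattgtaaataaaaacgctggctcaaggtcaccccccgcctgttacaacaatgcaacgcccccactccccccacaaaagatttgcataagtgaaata

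loco had summits at 2 of its 4 TSSs. It encodes a regulator of G protein signalling that acts with moody in the blood-brain barrier and is a known target of Gcm, and it lies at 3R 22619968 to 22639387 on the minus strand. The stronger summit had a pooled signal of 529.5 and rank 953, with ranks of 836 in replicate 1 (signal 334.2) and 1270 in replicate 3 (signal 198.2). It lay 532 bp before the TSS of loco-RC and loco-RF, and in introns of the 3 longer transcripts, intron 2 of loco-RD and loco-RB and intron 1 of loco-RH. The other summit was 1 bp before the TSS of loco-RH and in intron 2 of loco-RD. It had a signal of 265.7 and rank 3377, with ranks of 3994 and 3486.

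The remaining TSSs of loco had weaker peaks. Within 1000 bp of the TSS of loco-RD the strongest pooled signal was 94.2, and near that of loco-RB it was 98.0, at ranks 12453 and 11985. The window of loco held 16 pooled summits in all, the most among the 10 genes, with 18 in replicate 1 and 14 in replicate 3. It was also the longest of the genes.

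The sequences at both loco sites are on the minus strand, the first being the 100 bp before the TSS of loco-RH (chr3R:22636457-22636556) and the second the 121 bp around the intronic summit (chr3R:22627106-22627226). They contrast a site with several of the words sought and one with none. Capitals mark, as reverse complements, the GAGA word GAGAGAG and the N-box forms CACTAG and CACCAG. The GAGA word occurs at overlapping positions and shares a base with the N-box form beside it.
loco-RH start: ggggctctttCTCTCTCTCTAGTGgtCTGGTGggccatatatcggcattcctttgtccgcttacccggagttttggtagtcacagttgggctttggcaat
loco intron: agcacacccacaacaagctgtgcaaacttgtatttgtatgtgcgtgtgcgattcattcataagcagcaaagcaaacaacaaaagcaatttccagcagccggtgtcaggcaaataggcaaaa

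nrv2 had 1 summit at its most downstream TSS and 1 beyond its end. It encodes a beta subunit of the sodium and potassium pump that is abundant in glia, and it lies at 2L 6789770 to 6798862 on the minus strand. The first summit lay 235 bp after the TSS of nrv2-RA, nrv2-RD and nrv2-RE, in intron 1 of nrv2-RA and nrv2-RE and in the 5′ untranslated region of nrv2-RD. Its signal was 199.7 and its rank 5138, with ranks of 4028 and 4986, and the summit of replicate 3 lay 132 bp away. The stronger summit had a signal of 253.9 and rank 3625, with ranks of 4594 and 4559, and lay 188 bp past the gene end. The nearest protein-coding TSS was that of nrv1, 2721 bp away, and the nearest one of nrv2 was 5017 bp away. The 3 upstream TSSs of nrv2 had no pooled summit within 1000 bp.

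A stretch of 30 bp at the nrv2 promoter summit (chr2L:6794387-6794416, minus strand) is shown for its N-box form. It lies in the 5′ untranslated region of nrv2-RD, and capitals mark the reverse complement of CACTAG.
nrv2 site: caagctcaaaaaCTAGTGaatttacgaaaa

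Eaat1 had only peaks below the reproducible threshold. It encodes a glutamate transporter of glia and lies at 2L 9333567 to 9341925 on the plus strand. At its first TSS, used by 5 transcripts, a pooled summit lay 57 bp downstream with a signal of 76.8 and rank 15185. Replicate 1 listed this peak at rank 21856 (signal 33.4) and replicate 3 at rank 11427 (signal 48.8). Both are low-ranked entries of lists that include background. The TSS of Eaat1-RC had none in the pooled list. The nearest reproducible summit was 45.5 kb from the gene, and 11.7% of genes were at least as far from one.

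htl, which encodes an FGF receptor of mesoderm and glia, had an empty window in all 4 lists. It lies at 3R 18045216 to 18052984 on the minus strand, with 2 TSSs. The nearest pooled summit was 51.8 kb from the gene and the nearest reproducible one 69.0 kb. In all, 428 of 13945 genes, or 3.07%, were at least as far from a pooled summit, and 7.13% were at least as far from a reproducible one. Among genes with a span of 5 kb to under 20 kb, 24.2% had no summit of any full list in their window.

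**Figure D2:**
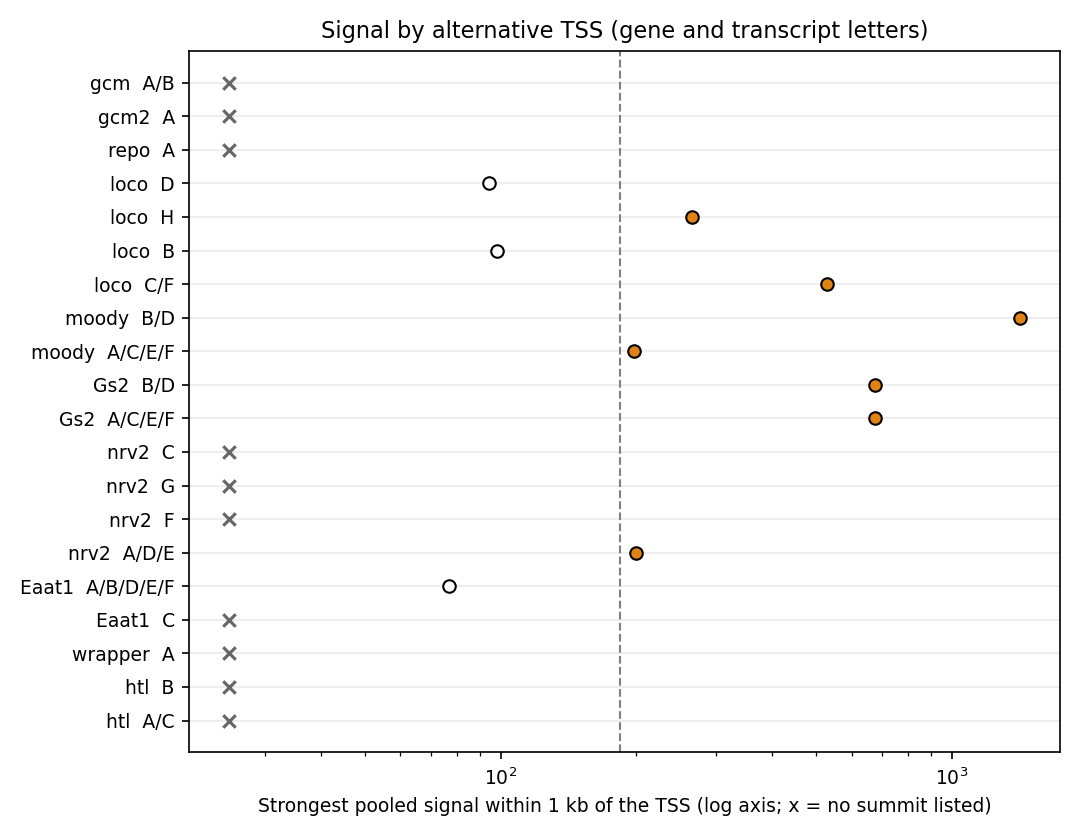
Strongest pooled signal (log axis) within 1000 bp of each of the 20 TSSs of the 10 genes, labelled with the letters of the transcripts that start there; filled points belong to the reproducible list, whose lowest signal, 183.6, is the dashed line, open points do not, and crosses mark TSSs with no pooled summit. The filled points run from 197.4 at the second moody TSS to 1417 at the first; the 2 Gs2 TSSs share 1 summit, and no early regulator has a point.

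Counted by TSS, 7 of the 20 start sites of the 10 genes had a reproducible summit within 1000 bp, against 29.0% of all 19607 protein-coding TSS positions. The 7 are not separate sites. Both Gs2 TSSs were counted through the same summits, and the second moody TSS through the first-exon summit, which was nearer to the first TSS. Counted by gene, loco, moody, Gs2 and nrv2 had such a summit, 4 of 10 against 27.9% of all genes. That share is not matched for the number of TSSs. The 4 genes had 2 or 4 TSSs each, while 3699 of all 13945 protein-coding genes had more than 1. The gene count is not far above the background for so small a set. Summits did not fall on every alternative TSS of these genes. At moody the pooled signal within 1000 bp was 1417 for the first TSS and 197.4 for the second. Reproducible summits lay within 1000 bp of 1 of the 4 TSSs of nrv2 and of 2 of the 4 of loco, whose other TSSs had weaker pooled summits.

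wrapper was counted only through a summit at another gene. It encodes an immunoglobulin superfamily protein of midline glia that wraps commissural axons, and it lies at 2R 22379637 to 22382675 on the plus strand. The summit had a pooled signal of 557.5 and rank 865, with ranks of 886 in replicate 1 (signal 324.4) and 846 in replicate 3 (signal 243.1). It lay 475 bp past the end of wrapper and 3513 bp from its TSS, but 16 bp from a TSS of CG13506. The TSS of wrapper itself had no summit within 1000 bp in any list.

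Of the 11 member summits, 3 lay nearer to a TSS of another gene than to one of the member. These were the summits at CG13506, at Actn with usp, and past the end of nrv2. Over all genes, 47.9% of the 10233 pairs of a window and a reproducible summit were of this kind. With only the 8 summits nearest to an own TSS, 4 of the 7 differentiated genes kept a summit, and wrapper was the one lost. By place, 7 summits were inside the span, 3 in the 3′ flank and 1 in the 5′ flank.

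The stronger sites ranked high in both replicates. This is partly built in, since the list holds the peaks of highest pooled signal and the pooled signal was made from both replicates. In 9 of the 11 cases the peak overlapped one of the 5744 strongest of both replicates, close to the 79.4% of all reproducible peaks. The exceptions were the weaker 2 summits of moody, and the second Gs2 row joined them where only the replicate peak with the nearest summit was used. The strongest sites of moody, Gs2, loco and wrapper ranked within the first 1270 in each replicate.

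**Figure D3:**
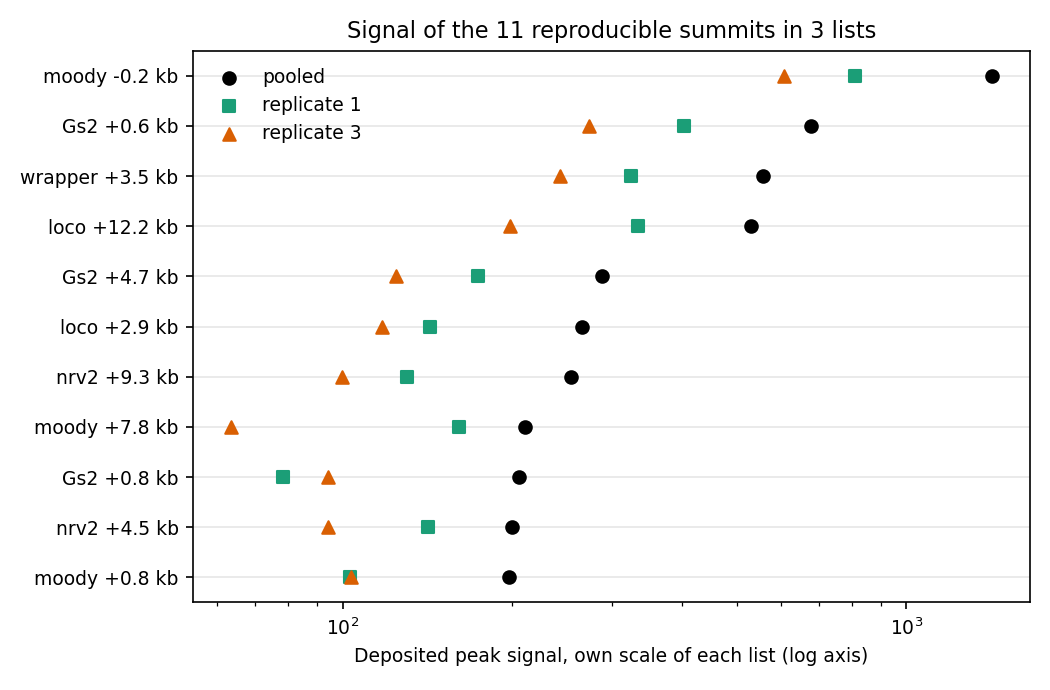
Deposited signal (log axis) of the 11 reproducible summits in the pooled list (circles), replicate 1 (squares) and replicate 3 (triangles), named by gene and distance from the most upstream TSS; lists have their own scales. The moody promoter is highest in all 3 lists, and the summit at 7756 bp from the first moody TSS has the largest ratio between replicates, 160.6 to 63.4.

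Words linked to E(spl) proteins were sought within 100 bp of the 11 summits, on both strands. CACGTG was at 0 and CACGCG at 1, the summit beside wrapper, against 4.07% and 8.10% of all reproducible summits. The N-box form CACTAG was at 4 of the 11, against 5.45%. These were the loco-RH start, the moody promoter, the nrv2 summit within the gene and the summit beside wrapper. Within 50 bp only the nrv2 summit kept CACTAG, 1 of 11 against 2.51%. CACGAG was at 1 (Gs2), CACCAG at 1 (loco-RH) and CACAAG at 0, against 4.82%, 6.01% and 8.65%. Several of the sites are shown in the sequences above. A word in a window is a description and not evidence of binding at that word.

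Words of other factors were also sought. The GAGA factor word GAGAGAG was at 3 summits, loco-RH, the first exon of moody and the site beside wrapper, against 6.46% of all reproducible summits. Within 50 bp it was at 1, the first exon of moody, against 2.49%. At loco-RH the word occurred at overlapping positions. The words GTGGGAA and GTGAGAA, forms of the Su(H) site, were at 0 and 1, the latter at the moody window's summit beside Actn, against 2.11% and 2.39%. TATCGATA, the DREF word, GGTCACACT, the M1BP core, and ATGCGGGT, the Gcm word, were at 0 of 11, against 3.80%, 2.04% and 0.122%. With so few summits the counts of single words were not tested.

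Relatives of the members did not follow a single pattern. Gs1, the other glutamine synthetase gene, had a summit 20 bp after its TSS with a signal of 513.8 and rank 1008, where the strongest Gs2 summit had 676.0. nrv1 and nrv3, which encode other pump beta subunits, had summits of 740.2 and 193.5, against 199.7 at the most downstream nrv2 TSS. The summit of 253.9 past the nrv2 end lay nearer to the TSS of nrv1 than to any of nrv2. Eaat2, the other excitatory amino acid transporter gene, had a summit of 229.0 at 1589 bp before its first TSS, whereas the strongest pooled signal at Eaat1 was 76.8. Tre1, a receptor gene related to moody, had an intronic summit of 796.8, and klg, an adhesion gene related to wrapper, had none in the reproducible list. btl, the other FGF receptor gene, had an empty window in all 4 lists, as htl did. Its nearest pooled summit was 18.7 kb away. In total 5 of the 7 relatives had a reproducible summit, against 39.3% of all genes and 52.9% of those with a span of 5 kb to under 20 kb, the span class of nrv1, nrv3, Eaat2, Tre1 and btl.

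A wider list of 34 glial genes, all of which matched the annotation, gave 17 with a reproducible summit, against 39.3% of all genes. The median of their strongest signal was 369.9, against 360.0 over all genes with a summit. The strongest were at Gbeta13F (3326), fray (935.4) and Atpalpha (859.6). The summit counted for Gbeta13F, a G protein beta subunit gene, lay 147 bp from a TSS of Gapdh2 and 7292 bp from its own. That of fray, a kinase gene needed for axon ensheathment, lay 283 bp from its TSS and as far from that of CG7694. That of Atpalpha, the pump alpha subunit gene, lay 184 bp from its own TSS.

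By role, the counts below stand against 39.3% of all genes and 52.9% of genes with a span of 5 kb to under 20 kb. Neither share is matched to the longer genes among them, and differences between roles were not tested. Among septate junction genes with Atpalpha, 7 of 11 had a reproducible summit, Gli, Cont, Nrg, cora, vari, pck and Atpalpha. For 4 of these 7 the strongest summit was nearest to an own TSS, while those of Cont, vari and Nrg were nearest to TSSs of tub, Pomp and PIP82. Among G protein signalling genes, which act beside moody and loco, 4 of 5 had one, and for 2 of these 4 the strongest was nearest to an own TSS, those of Gbeta13F and Pka-C1 being nearest to Gapdh2 and pelo. Among engulfment genes drpr and ced-6 had one, 2 of 4, and among transport and astrocyte-like genes fray and Tret1-1, 2 of 7. The regulators pnt and ttk had one, with 838.0 and 330.1 at 10424 and 3632 bp from the nearest TSS, whereas sim and pros had no summit in any list. Of the 17 strongest summits, 12 lay nearest to a TSS of the gene itself.

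The genes that act with htl had no reproducible summit in their windows, where 39.3% of all genes had one. These were ths and pyr, which encode its ligands, and stumps, which encodes its adaptor. Unlike htl they had pooled summits, as 59.5% of all genes did, 16 at ths, 12 at pyr and 3 at stumps. Their windows were 61608, 18083 and 34863 bp long, and the 6 arms held 2.24 pooled summits per 10 kb. The strongest signals were 181.6, 143.7 and 153.9. That of pyr lay 14718 bp from its TSS, and that of stumps lay 66 bp from a TSS of CG44094 and 540 bp from its own. The ths peak, at rank 5831, stood just below the end of the reproducible list. A reproducible summit with a signal of 416.8 and rank 1507 lay 2015 bp from stumps, just outside its window. The summits of this peak in the replicates fell inside the window, at rank 1297 in replicate 1 and 3862 in replicate 3. Within the windows of ths and pyr the best ranks were 5373 and 2817 in replicate 1, and 7127 and 7703 in replicate 3. Among the 5744 strongest peaks of replicate 1 alone, ths, pyr and stumps would thus each have a summit, and in replicate 3 only stumps.

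**Figure D4:**
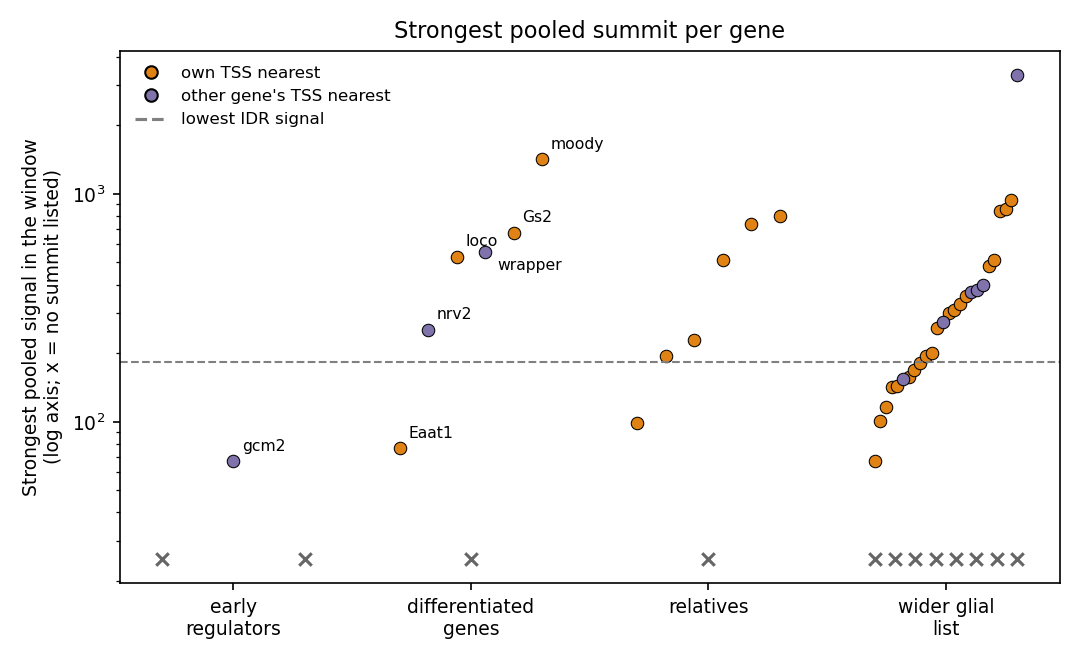
Strongest pooled signal (log axis) in the window of each gene for the 3 early regulators, the 7 differentiated genes, the 7 relatives and the 34 genes of the wider list; the dashed line is the lowest reproducible signal, 183.6, crosses are genes with no pooled summit, and purple points are summits nearest to a TSS of another gene. The early regulators have 1 point, gcm2 at 67.0, and the differentiated genes run from Eaat1 at 76.8 to moody at 1417, with a cross for htl.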

How the data were processed

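Deposited peak lists of 2 chromatin immunoprecipitation replicates were used. Per the labels, chromatin was sonicated to 200 to 800 bp. The description files deposited beside the lists name, as sources, the alignment of each replicate or of both, plus 1 further file that also underlies the authors' control-normalized tracks and was not analysed here. They gave 3 lists of 30000 entries on dm6, labelled as peaks and background for input to IDR. A low-ranked entry may thus be background. From these lists the authors derived 5744 IDR peaks. These were identical to the 5744 pooled peaks of highest signal. For the aligner, the peak caller and the IDR cutoff, names and settings were not given in the sources used here. Each peak's deposited signal was ranked within its list. The deposited −log10 q-value stood at 4.09 for all IDR peaks and was not used. Read depth is unknown, since counts of reads are not part of the lists.

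Genes came from Ensembl release 115 and sequence from the RefSeq copy of dm6. Summits beyond the peak end were set to its last base (4 IDR peaks). Replicate values at a summit are those of the overlapping peak with the nearest summit. The counting steps were tested on simulated data. No test between groups was possible with 1 group. All members, their relatives, the wider list, the 12 words and the rules were chosen with earlier results of these data known. The text names every member and relative, genes whose TSS was nearer to a member's summit, and the 3 strongest of the wider list. Other genes of that list, the neighbours of its genes, and those of gcm, gcm2, repo and Eaat1 were named after their values were seen. Alternatives covered the window, the peak list, each replicate alone and merging. Python 3.11.15, pandas 2.3.3 and numpy 2.4.6 were used.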

Additional observations from a re-analysis of the deposited data

How the results depend on the processing

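The number of members with a reproducible summit was 5 and ranged from 4 to 7 over the alternatives. That of differentiated genes stayed between 4 and 5. With the gene span only, the summits counted fell from 11 to 7, and with a window of 5 kb they rose to 18 and 2 of the 3 early regulators were included. With the list cut at its median rank or at its strongest 1000 peaks, 4 summits were left. Using the 5744 strongest peaks of replicate 3 or replicate 1 alone gave the same 5 genes, with 11 and 12 summits. CACGTG or CACGCG was at 1 member summit within 100 bp and at 2 within 250 bp. CACTAG was at 1 within 50 bp, 4 within 100 bp and 5 within 250 bp, against 2.51%, 5.45% and 11.6% of all reproducible summits. For 2 further alternatives, chosen after seeing the data, counting only summits nearest to a TSS of the member gave 8 summits at 4 genes, and using only the replicate peak with the nearest summit left 8 summits among the strongest of both replicates, where any overlapping peak gave 9. The lists hold no read counts, so what depth limits cannot be weighed.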

Other observations

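Some genes of the wider list were listed strongly in 1 replicate. At Lac, a septate junction gene, replicate 3 had a peak of rank 1064 with a signal of 217.9, and the overlapping peak of replicate 1 ranked 24036 with a signal of 30.3. At pyr, replicate 1 had a peak of rank 2817 with a signal of 175.9, and no peak of replicate 3 or of the pooled list overlapped it. Neither peak is in the reproducible list, and the difference between replicates was not tested.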
